A study of Homo sapiens with 16 samples.

Results

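The BAG family comprises 6 human genes, BAG1 to BAG6, whose proteins carry a BAG domain, and its members were taken here by gene symbol. All 6 were among the 23597 genes listed for RNA-seq and the 19201 listed for Ribo-seq, and all 6 passed the filter on low counts in both assays. Transcripts (RNA-seq) and ribosome footprints (Ribo-seq, the sequencing of mRNA stretches held by ribosomes) were measured in WI-38, a fibroblast line from human lung with a finite lifespan in culture. The 4 conditions were senescent cells at passage 36 after heat shock, young cells at passage 24 after heat shock, senescent control cells and young control cells. Heat shock lasted 2 h at 44 °C (the labels write 440C, read here as a lost degree sign), and all cells, controls included, had been starved of serum and returned to full medium beforehand. Each condition had 2 libraries in each assay, 16 in all. Nothing in the labels says that the 2 libraries of a group came from separate cultures, so the p values measure the spread between these libraries, which may be technical.

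HSP70 chaperones hold unfolded protein while bound to ADP and let it go when ADP is exchanged for ATP. BAG proteins bind the nucleotide-binding domain of HSP70 and speed that exchange, and each joins HSP70 to a different destination. BAG1 carries a ubiquitin-like domain and leads clients to the proteasome, BAG3 works with the small heat shock protein HSPB8 and leads them to autophagy, and BAG2 and BAG5 restrain the ubiquitin ligases CHIP and parkin. BAG4 is known for holding the TNF receptor silent. BAG6 guards newly made membrane proteins, and its BAG-like domain is known mainly for holding UBL4A rather than for exchange on HSP70. BAG3 is a known target of HSF1, the transcription factor of the heat shock response, which binds repeats of the letters GAA and TTC.

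The 250 bases upstream of the RefSeq start site are shown for BAG3, the member with the greatest change, and for BAG2. Of the 5 members searched, BAG2 was the 1 whose window held the motif. Capitals mark a match to GAANNTTC, a pair of heat shock element units facing each other. Both are read 5′ to 3′ on the plus strand of GRCh38.p14, from chr10:119651130-119651379 for BAG3 and chr6:57172076-57172325 for BAG2.
BAG3: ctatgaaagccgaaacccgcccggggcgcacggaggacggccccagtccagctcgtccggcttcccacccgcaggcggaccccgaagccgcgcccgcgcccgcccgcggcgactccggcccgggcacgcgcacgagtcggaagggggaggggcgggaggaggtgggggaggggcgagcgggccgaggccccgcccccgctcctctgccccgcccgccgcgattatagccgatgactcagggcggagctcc
BAG2: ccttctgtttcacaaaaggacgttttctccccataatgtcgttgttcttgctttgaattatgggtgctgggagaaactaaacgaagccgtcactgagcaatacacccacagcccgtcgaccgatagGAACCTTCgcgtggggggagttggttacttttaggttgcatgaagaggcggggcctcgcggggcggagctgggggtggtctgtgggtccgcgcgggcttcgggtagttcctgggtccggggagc

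Windows of 300 bases (250 upstream and 50 downstream of the start) were searched for 5 of the 6 genes, and BAG5 and BAG6 had 2 windows each. BAG4 was left out of this search. The search covered GAANNTTC and TTCNNGAA, each of which reads the same on both strands. A match to GAANNTTC was found in 6.77% of the 35116 human windows of this length, one to TTCNNGAA in 7.74%, and either one in 13.5%. The BAG2 window held 1 match, starting 124 bases before the start site, and the windows of BAG1, BAG3, BAG5 and BAG6 held none. HSPB8 and DNAJB1, the genes whose pattern over the libraries was most like that of BAG3, had matches, the first starting 88 and 77 bases before the start site. DNAJB1 had 3 windows, of which 2 held a match, and TRIM16, next in likeness, had none. The 30 bases around the first match of HSPB8 and DNAJB1 are set beside those of BAG2, from chr12:119178832-119178861 (plus strand) for HSPB8, chr19:14518456-14518485 (minus strand) for DNAJB1 and chr6:57172191-57172220 (plus strand) for BAG2.
HSPB8: tcatcacctccGAATATTCctgtgacagga
DNAJB1: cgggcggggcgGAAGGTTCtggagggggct
BAG2: tcgaccgatagGAACCTTCgcgtgggggga
A match is a run of letters and no measured binding site, and these windows say nothing of sequence outside them.

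The libraries held 26434514 to 37126871 counts assigned to genes in RNA-seq and 4581141 to 9104077 in Ribo-seq. The summed level of 10 fibroblast markers was 10094 to 15363 TPM (a transcript level per length, scaled to the library) in RNA and 8498 to 11355 TPM in footprints. Summed markers of epithelial cells reached at most 2.96 TPM in RNA and 4.55 TPM in footprints, those of endothelial cells 0.34 and 0.09 TPM, and those of leukocytes 0.81 and 1.36 TPM. CDH5 and CD3E, defining markers of endothelial cells and T cells, were at 0 in all 16 libraries. On heat shock, footprints of 4 of the 10 fibroblast markers, all collagen genes, fell in senescent cells, and those of COL1A1 fell in young cells, while no fibroblast marker passed the test in RNA. In footprints 8.35% of all genes were called in senescent and 1.15% in young cells, in either direction. For the change of footprints beyond that of RNA, 4 of the 10 fibroblast markers were called lower in senescent cells and 0 in young cells. There 2.43% and 0.0896% of all genes were called. Whether collagen footprints bear on those of the BAG genes was not tested. For an RNA level in bulk samples, fewer cells of a kind and less RNA per cell cannot be told apart.

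BAG3, which leads chaperone clients to autophagy, rose on heat shock in both states and both assays. BAG3 RNA stood at 1371 and 801 TPM in heat-shocked senescent cells and at 2150 and 2133 TPM in heat-shocked young cells, against 91.4 and 92.7 TPM in senescent controls and 78.2 and 71.2 TPM in young controls. BAG3 footprints stood at 692 and 634 TPM in heat-shocked senescent cells and at 1052 and 1779 TPM in heat-shocked young cells, against 54.1 and 71.8 TPM in senescent controls and 56.3 and 54.7 TPM in young controls. Every heat-shocked library lay far above every control, and the heat-shocked senescent libraries lay below both heat-shocked young ones in each assay. On heat shock the log2 fold change of BAG3 RNA, from edgeR's quasi-likelihood test with Benjamini-Hochberg adjustment over all genes tested, was 3.74 ± 0.20 in senescent cells (SE, n = 2 libraries a group, adjusted p = 3.66e-04) and 5.11 ± 0.20 in young cells (adjusted p = 5.07e-05). The log2 fold change of its footprints was 3.71 ± 0.25 in senescent cells (adjusted p = 4.59e-04) and 4.86 ± 0.25 in young cells (adjusted p = 1.83e-04).

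**Figure D1:**
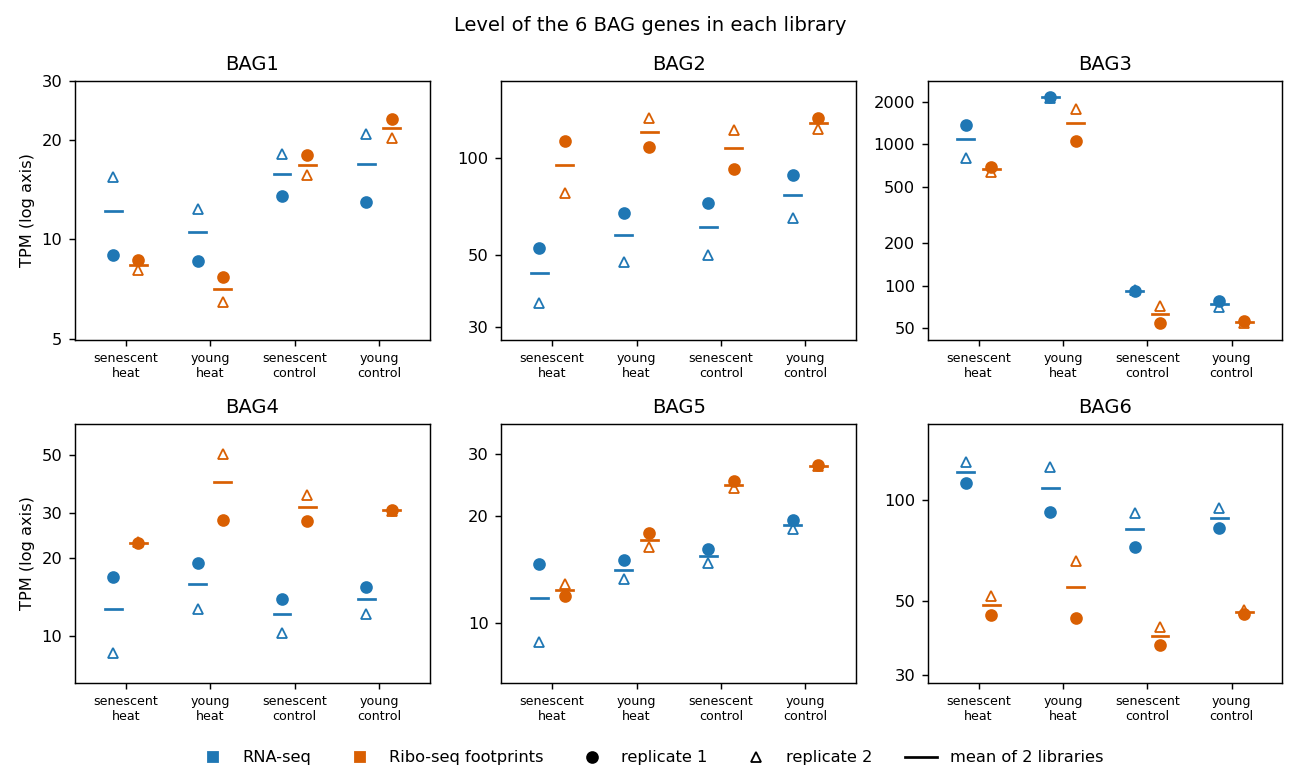
Level of each BAG gene in TPM (log axis, own scale per panel) in every library, with RNA-seq in blue and Ribo-seq footprints in orange. Points are libraries (circle for replicate 1, open triangle for replicate 2) and bars are means of 2. BAG3 stands at 634 to 2150 TPM in the heat-shocked libraries, against 54.1 to 92.7 TPM in the controls, while no other member passes 133 TPM.

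In RNA, BAG3 was the 1 member of 6 that passed the test on heat shock, in senescent cells (0.577% of all genes tested were called) and in young cells (1.14% called). In footprints, BAG3 was the 1 member called in senescent cells, where 8.35% of all genes were called, and BAG3 and BAG1 were called in young cells, where 1.15% were. BAG2, BAG4, BAG5 and BAG6 passed the test in no comparison of this fit, which had no replicate block. With a block, BAG6 RNA also passed on heat shock in both states. There 6.28% of all genes were called in senescent and 8.77% in young cells.

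BAG1, which leads clients to the proteasome, passed the test with lower footprints in heat-shocked young cells, a call that was lost when any 1 young footprint library was left out. BAG1 footprints stood at 8.67 and 8.06 TPM in heat-shocked senescent cells and at 7.67 and 6.46 TPM in heat-shocked young cells, against 17.9 and 15.7 TPM in senescent controls and 23.2 and 20.3 TPM in young controls. All 4 heat-shocked libraries lay below all 4 controls, and the gene had 31 to 194 footprint counts in a library. In young cells the log2 fold change of BAG1 footprints was −1.59 ± 0.27 (SE, n = 2 libraries a group, edgeR's quasi-likelihood test, adjusted p = 0.0329). In senescent cells it was −0.58 ± 0.27, which did not pass (adjusted p = 0.197), and on the log2(TPM + 1) scale with limma it was −0.92 (adjusted p = 0.0437). The senescent response minus the young one was 1.01 ± 0.39 and did not pass (unadjusted p = 0.0286, adjusted p = 0.834, edgeR's quasi-likelihood test).

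For BAG1 footprints in young cells edgeR's adjusted p was 0.415 and 0.381 without young control replicates 1 and 2, and 0.174 and 0.107 without young heat replicates 1 and 2. The 2 young control footprint libraries differed by little more than sampling noise (chi-square per degree of freedom over genes 1.73, against 17.2 to 38.7 in the other footprint groups). With their counts summed as 1 sample the log2 fold change was −1.59 with an edgeR adjusted p of 0.388.

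BAG1 RNA stood at 8.93 and 15.4 TPM in heat-shocked senescent cells and at 8.59 and 12.4 TPM in heat-shocked young cells, against 13.5 and 18.05 TPM in senescent controls and 13.0 and 20.9 TPM in young controls. In TPM the heat-shocked and control libraries overlapped in senescent cells and lay just apart in young cells, and in CPM (counts scaled to the TMM-adjusted library size) they overlapped in both states. The log2 fold change of BAG1 RNA was −0.13 ± 0.42 in senescent cells and −0.43 ± 0.42 in young cells, with edgeR's adjusted p at 0.976 and 0.909.

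**Figure D2:**
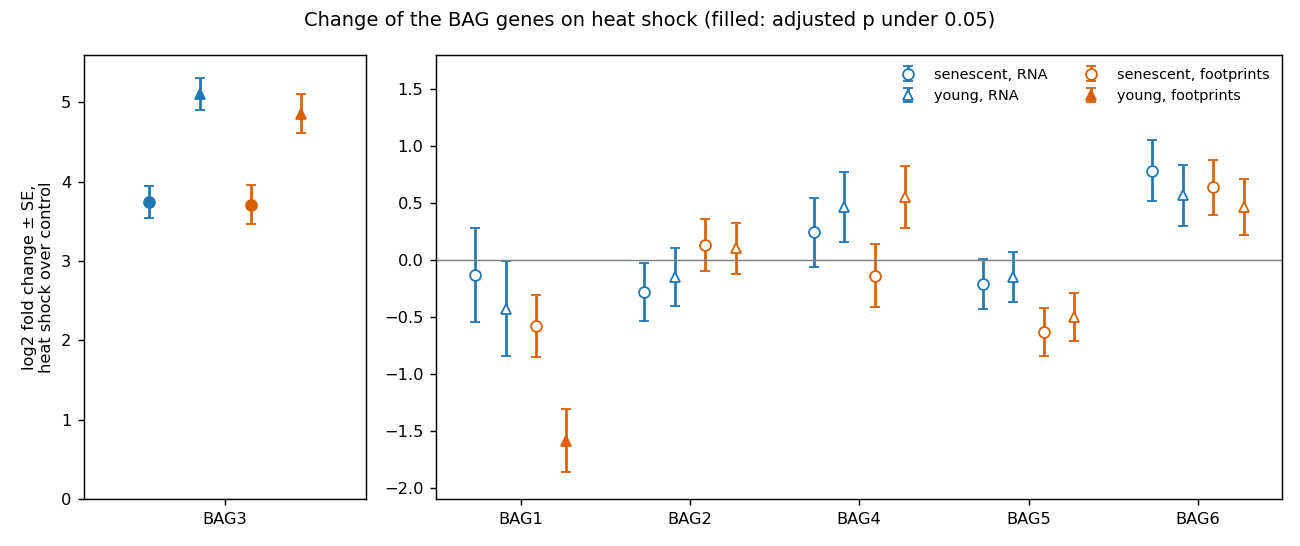
Log2 fold change on heat shock (heat shock over control, whiskers are SE from edgeR) for BAG3 on the left and the other 5 genes on the right, each panel with its own axis. Circles are senescent cells and triangles young cells, in blue for RNA and orange for footprints, and filled symbols have an adjusted p under 0.05. The filled symbols are the 4 values of BAG3, 3.71 to 5.11, and BAG1 footprints in young cells at −1.59.

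BAG2, an inhibitor of the ubiquitin ligase CHIP, passed no test, and its heat-shocked groups overlapped their controls. BAG2 RNA stood at 52.5 and 35.6 TPM in heat-shocked senescent cells and at 67.2 and 47.7 TPM in heat-shocked young cells, against 72.3 and 50.1 TPM in senescent controls and 88.3 and 65.2 TPM in young controls. Its footprints stood at 113 and 77.5 TPM in heat-shocked senescent cells and at 108 and 133 TPM in heat-shocked young cells, against 92.4 and 122 TPM in senescent controls and 133 and 123 TPM in young controls. Heat-shocked and control libraries overlapped in both states and both assays. The 4 log2 fold changes on heat shock ran from −0.28 ± 0.26 for RNA in senescent cells to 0.13 ± 0.23 for footprints in senescent cells, and the lowest edgeR adjusted p was 0.733. In GENCODE, 42.7% of the exon bases of BAG2 lie on those of RAB23 on the other strand, and it is not stated whether counting used strand, so reads of the 2 genes may be mixed.

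BAG5, which binds parkin and HSP70, had lower footprints in heat-shocked cells but missed the threshold. BAG5 footprints stood at 11.9 and 12.9 TPM in heat-shocked senescent cells and at 17.9 and 16.4 TPM in heat-shocked young cells, against 25.2 and 24.0 TPM in senescent controls and 28.0 and 27.7 TPM in young controls. The groups did not overlap, and the senescent libraries lay below the young ones both after heat shock and in control. How many of all genes part in this way was not counted. In TPM, control footprints of BAG1, BAG2 and BAG6 also lay lower in senescent than in young cells. After heat shock, footprints of BAG3 and BAG4 lay lower in senescent cells and those of BAG1 lay higher, again without overlap. Senescent minus young, the log2 difference did not pass after heat shock (−0.30 ± 0.21, edgeR adjusted p = 0.563) or in control (−0.17 ± 0.21, adjusted p = 0.858). On heat shock the log2 fold change of BAG5 footprints was −0.63 ± 0.21 in senescent cells (edgeR adjusted p = 0.0946) and −0.50 ± 0.21 in young cells (adjusted p = 0.288). In senescent cells it was −0.91 when counts were scaled by library size alone (edgeR adjusted p = 0.0261) and −0.93 on log2(TPM + 1) with limma (adjusted p = 0.0309). BAG5 RNA stood at 14.7 and 8.85 TPM in heat-shocked senescent cells and at 15.0 and 13.3 TPM in heat-shocked young cells, against 16.2 and 14.8 TPM in senescent controls and 19.5 and 18.4 TPM in young controls. In TPM the heat-shocked libraries lay below the controls in both states, by little in senescent cells, where they overlapped in CPM. Its RNA log2 fold change was −0.22 ± 0.22 in senescent cells and −0.16 ± 0.22 in young cells, with edgeR's adjusted p at 0.884 and 0.952.

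BAG6, the guard of new membrane proteins, had higher mean RNA in heat-shocked cells and did not pass the threshold in the fit without a replicate block. BAG6 RNA stood at 113 and 130.2 TPM in heat-shocked senescent cells and at 92.5 and 126 TPM in heat-shocked young cells, against 72.3 and 91.6 TPM in senescent controls and 82.5 and 95.1 TPM in young controls. In TPM the groups were apart in senescent cells and overlapped in young cells, and in CPM they were apart in both states. The log2 fold change of BAG6 RNA was 0.78 ± 0.27 in senescent cells (edgeR adjusted p = 0.421) and 0.57 ± 0.27 in young cells (adjusted p = 0.565). Its footprints stood at 45.3 and 51.6 TPM in heat-shocked senescent cells and at 44.5 and 65.7 TPM in heat-shocked young cells, against 36.9 and 41.7 TPM in senescent controls and 45.6 and 47.1 TPM in young controls. These too were apart in senescent cells and overlapped in young cells in TPM, and were apart in both states in CPM. Their log2 fold change was 0.64 ± 0.24 in senescent cells and 0.46 ± 0.24 in young cells, with edgeR's adjusted p at 0.128 and 0.395.

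BAG4, which binds the TNF receptor, passed no test, and its RNA differed between the libraries of a group, with replicate 1 at 1.19 to 1.65 times the CPM of replicate 2. BAG4 RNA stood at 16.8 and 8.54 TPM in heat-shocked senescent cells and at 19.1 and 12.7 TPM in heat-shocked young cells, against 13.9 and 10.3 TPM in senescent controls and 15.5 and 12.2 TPM in young controls. Its footprints stood at 22.9 and 23.0 TPM in heat-shocked senescent cells and at 28.2 and 50.8 TPM in heat-shocked young cells, against 27.7 and 35.1 TPM in senescent controls and 30.8 and 30.4 TPM in young controls. In TPM the groups overlapped in RNA in both states and in footprints in young cells, while heat-shocked senescent footprints lay below their controls. In CPM heat-shocked young cells lay above their controls in both assays, and the senescent groups overlapped in both. The log2 fold changes of BAG4 on heat shock ran from −0.14 ± 0.28 for footprints in senescent cells to 0.55 ± 0.27 for footprints in young cells, and the lowest edgeR adjusted p was 0.366.

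The 2 RNA libraries of a group stood in the same order in every group for 4 members. BAG2 and BAG4 were higher in replicate 1 in 4 of 4 RNA groups, and BAG1 and BAG6 were higher in replicate 2 in 4 of 4. In RNA CPM, replicate 1 stood at 1.24 to 1.38 times replicate 2 for BAG2 and at 1.19 to 1.65 times for BAG4. For BAG1 it stood at 0.487 to 0.717 times replicate 2, and for BAG6 at 0.691 to 0.812 times. In footprints only BAG6 kept 1 order, with replicate 2 higher in 4 of 4 groups. The share of all genes that keep 1 order was not counted. Across genes, replicate differences correlated at 0.563 to 0.765 between RNA groups, so a shared order was not looked at as a trait of this family. The labels do not say what a replicate number stands for.

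The next comparison asked whether senescent cells answered heat shock differently from young ones. The response of BAG3, senescent minus young, was −1.37 ± 0.29 in RNA (log2 scale, SE, edgeR's quasi-likelihood test, unadjusted p = 0.00133, adjusted p = 1.00) and −1.15 ± 0.35 in footprints (unadjusted p = 0.00981, adjusted p = 0.834). None of the 6 members passed this test in either assay, and 0% of all genes did by edgeR: 119 RNA genes and 554 footprint genes had an unadjusted p under 0.05, and DESeq2 called 3 and 10. The values of the other 5 members ran from −0.22 ± 0.43 for BAG4 to 0.30 ± 0.59 for BAG1 in RNA, and from −0.70 ± 0.39 for BAG4 to 1.01 ± 0.39 for BAG1 in footprints.

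After heat shock, BAG3 RNA was lower in senescent than in young cells by a log2 difference of −0.93 ± 0.20, which did not pass with edgeR (adjusted p = 0.180) and passed with DESeq2 (adjusted p = 0.00674). For BAG3 footprints the same difference was −0.94 ± 0.25, with an adjusted p of 0.241 by edgeR and 0.0385 by DESeq2. It was −0.57 without young heat replicate 2 and −1.29 without young heat replicate 1. The mean BAG3 level in heat-shocked senescent cells was 0.507 times that in heat-shocked young cells in RNA TPM and 0.468 times in footprint TPM. In the fit without a replicate block, no member passed edgeR's test between heat-shocked senescent and young cells. In RNA 0% of all genes were called, 1520 had an unadjusted p under 0.05, and DESeq2 called 245. In footprints 0.00886% were called. With the block BAG3 passed in RNA, where 13.7% of all genes were called. In the controls, BAG3 RNA was 0.44 ± 0.20 higher on the log2 scale in senescent cells with an edgeR adjusted p of 0.722, and BAG3 footprints were 0.21 ± 0.25 higher with an adjusted p of 0.858. Again none of the 6 members passed, in RNA (0.0379% of all genes called) or in footprints (0% called, 885 with an unadjusted p under 0.05, and 120 called by DESeq2).

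After heat shock most BAG transcripts and footprints were those of BAG3. It made up 86.9% and 80.1% of the summed RNA TPM of the 6 genes in heat-shocked senescent cells and 91.4% and 91.0% in heat-shocked young cells, against 32.7% and 33.4% for senescent controls and 26.3% and 25.2% for young controls. In footprints its share was 77.4% and 78.5% in heat-shocked senescent cells and 83.6% and 86.7% in heat-shocked young cells, against 21.3% and 23.2% for senescent controls and 17.8% and 18.1% for young controls. In both assays the share was lower in senescent than in young cells after heat shock and higher in senescent than in young controls, with no overlap of libraries. The other 5 genes together stood at 199 to 206 TPM of RNA in heat-shocked senescent cells, above the 185 to 188 TPM of senescent controls. In young cells they stood at 203 to 212 TPM after heat shock and at 212 to 219 TPM in controls. Their footprints stood at 201 and 173 TPM in heat-shocked senescent cells and at 206 and 272 TPM in heat-shocked young cells. Control footprints of these 5 genes stood at 200 and 238 TPM in senescent cells and at 260 and 248 TPM in young cells.

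**Figure D3:**
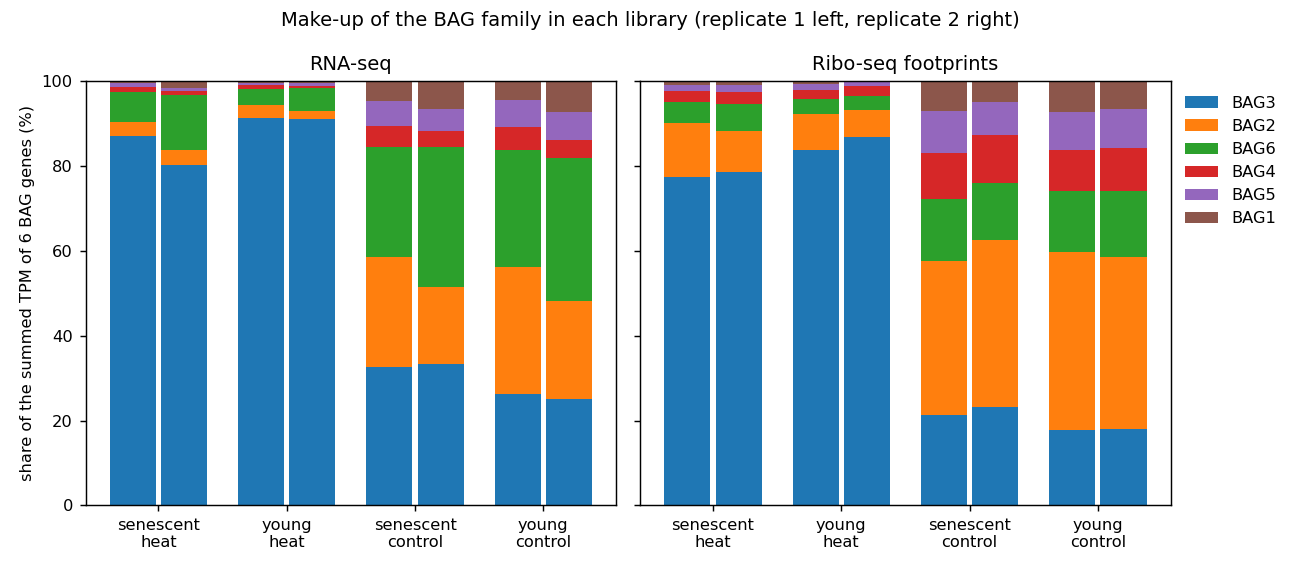
Share of each BAG gene in the summed TPM of the 6 genes (percent, stacked to 100), 1 bar per library, for RNA-seq on the left and footprints on the right. BAG3 fills 77.4% to 91.4% of the bars of heat-shocked cells, against 17.8% to 33.4% in controls, where BAG2 and BAG6 take most of the rest.

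The order of the members by TPM differed between control and heat shock. After heat shock BAG3 RNA came first, followed by BAG6 and BAG2, each apart from its neighbours in both states, while BAG1, BAG4 and BAG5 overlapped in senescent cells. In senescent controls the RNA of BAG3 and BAG6 overlapped. In young controls BAG2 overlapped both BAG3 and BAG6, with BAG3 below BAG6. BAG1, BAG4 and BAG5 lay below these members in both controls, at 10.3 to 20.9 TPM. In control footprints the order was BAG2, BAG3, BAG6, BAG4, BAG5 and BAG1 in both states, with no overlap between neighbours. In heat-shocked footprints BAG3 moved to the front, the order of the rest was the same, and BAG6 and BAG4 overlapped in young cells.

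Footprints per transcript were compared as the log2 ratio of footprint TPM to RNA TPM, each with 1 TPM added. BAG2 had a ratio of 1.09 ± 0.38 in heat-shocked senescent cells and 1.06 ± 0.28 in heat-shocked young cells, against 0.81 ± 0.33 in senescent controls and 0.74 ± 0.22 in young controls (SE, n = 2 libraries per assay). BAG6 had −1.31 ± 0.14 in heat-shocked senescent cells and −0.98 ± 0.35 in heat-shocked young cells, against −1.03 ± 0.19 in senescent controls and −0.92 ± 0.10 in young controls. BAG4 was like BAG2 at 0.88 to 1.31 over the 4 conditions, BAG3 lay at −0.66 to −0.42, and BAG5 at 0.11 to 0.63. BAG1 was the 1 member whose ratio was below 0 after heat shock, at −0.45 ± 0.37 in senescent and −0.49 ± 0.26 in young cells, and above 0 in control, at 0.10 ± 0.22 in senescent and 0.38 ± 0.34 in young cells. It is not stated whether footprints were scaled by coding or whole transcript length, and the order of genes on this ratio depends on it.

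**Figure D4:**
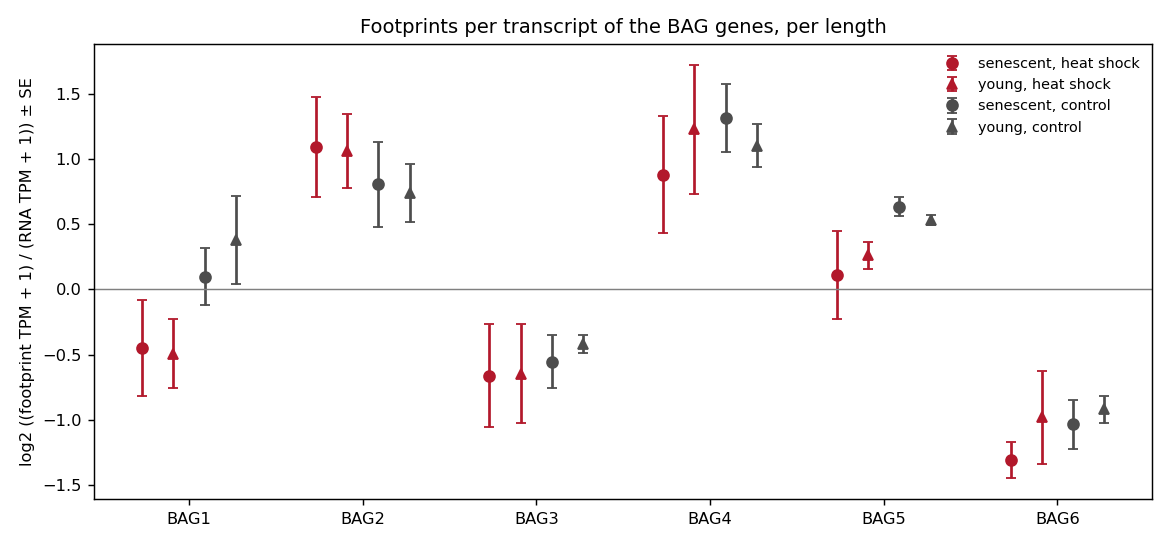
Log2 ratio of footprint TPM to RNA TPM (1 TPM added to each, whiskers are SE over 2 libraries per assay) for each BAG gene, with heat-shocked cells in red and controls in grey, senescent cells as circles and young cells as triangles. BAG2 and BAG4 lie above 0 and BAG3 and BAG6 below 0 in all 4 conditions.

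The change of footprints beyond the change of RNA, called translational efficiency, was tested in 1 edgeR fit of all 16 libraries. No member passed on heat shock in senescent cells (2.43% of all genes called) or in young cells (0.0896% called). BAG3 stood at −0.05 ± 0.33 in senescent cells and −0.25 ± 0.33 in young cells on the log2 scale, with edgeR's adjusted p at 0.956 and 1.00. BAG1 stood at −0.47 ± 0.52 in senescent cells (adjusted p = 0.687) and −1.16 ± 0.52 in young cells (unadjusted p = 0.0434, adjusted p = 1.00, edgeR's quasi-likelihood test). No member passed for the difference of the responses (0.00896% called) or between senescent and young controls (0.00896% called).

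Several genes of the HSP70 chaperones, on which BAG proteins act, also rose, as did genes of HSP110, which are exchange factors themselves. Of 10 cytosolic HSP70 and HSP110 genes, 5 rose in RNA in senescent cells and 6 in young cells, with a median log2 change of 2.37 and 3.92 against −0.01 and 0.01 over all genes tested, and none fell. In footprints 7 of the 10 rose in senescent cells and 6 in young cells, with a median of 2.88 and 4.04 against 0.03 and −0.01. The share of all genes called was 0.577% in senescent and 1.14% in young RNA, and 8.35% in senescent and 1.15% in young footprints. HSPA6, a strictly inducible HSP70, had 56333 and 74321 RNA counts in heat-shocked senescent cells and 79746 and 97676 in heat-shocked young cells, against 30 and 27 counts in senescent controls and 43 and 41 counts in young controls. HSPA1A and HSPA1B are near-identical copies whose reads cannot be split with certainty, so they were summed: their footprints stood at 8237 and 11813 TPM in heat-shocked senescent cells and at 10733 and 11365 TPM in heat-shocked young cells, against 75.7 and 75.6 TPM in senescent controls and 73.6 and 70.6 TPM in young controls. HSPA1L, their neighbour in the genome, also rose in young footprints, by a log2 change of 5.33 ± 0.72 (edgeR adjusted p = 0.0118). Its RNA stood at 12.5 and 14.0 TPM in heat-shocked young cells, far below that of HSPA1A. Whether reads of HSPA1A and HSPA1B were counted for it was not tested.

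Set against the family, the summed RNA TPM of 7 cytosolic HSP70 genes was 13.8 and 24.7 times that of the 6 BAG genes in heat-shocked senescent cells and 13.4 and 16.3 times in heat-shocked young cells, against 8.84 and 7.41 times in senescent controls and 7.91 and 6.69 times in young controls. In footprints it was 16.6 and 21.4 times in heat-shocked senescent cells and 13.2 and 8.58 times in heat-shocked young cells, against 8.86 and 5.47 times in senescent controls and 4.46 and 4.59 times in young controls. By this ratio each heat-shocked library lay above the controls of its state, and heat-shocked senescent footprints lay above heat-shocked young ones. Per BAG3 alone the order was the other way in young cells. HSP70 RNA TPM per BAG3 TPM was 15.9 and 30.8 in heat-shocked senescent cells and 14.7 and 17.9 in heat-shocked young cells, against ratios of 27.1 and 22.2 for senescent controls and of 30.03 and 26.6 for young controls. In footprints it was 21.5 and 27.2 in heat-shocked senescent cells and 15.8 and 9.89 in heat-shocked young cells, against ratios of 41.6 and 23.6 for senescent controls and of 25.1 and 25.4 for young controls. Heat-shocked young libraries lay below young controls in both assays, and the senescent groups overlapped.

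Of 8 exchange factors outside the family, none passed the test in RNA in senescent cells and HSPH1, an HSP110, rose in young cells by a log2 change of 4.36 ± 0.57 (edgeR adjusted p = 0.0256). HSPH1 RNA stood at 698 and 184 TPM in heat-shocked senescent cells, against 53.4 and 31.3 TPM in senescent controls. Both heat-shocked libraries lay above both controls, with a log2 change of 3.50 ± 0.57 that did not pass (edgeR adjusted p = 0.0725). In footprints HSPH1 (4.15 ± 0.23), HSPA4L (1.47 ± 0.31), also an HSP110, and GRPEL1 (0.88 ± 0.20), the mitochondrial exchange factor, rose in senescent cells, and HSPH1 (4.78 ± 0.23) and HSPA4L (3.31 ± 0.31) rose in young cells. Among all genes tested, 0.577% were called in senescent and 1.14% in young RNA, and 8.35% in senescent and 1.15% in young footprints. The median log2 change of the 8 was 0.22 in senescent and 0.48 in young RNA, and 0.87 in senescent and 0.68 in young footprints. HSPH1, HSPA4 and HSPA4L were also counted among the HSP70 and HSP110 genes.

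Of 14 partners of BAG3 in selective autophagy, HSPB8, the small heat shock protein bound to BAG3, rose in all 4 heat shock comparisons. HSPB8 RNA stood at 145 and 101 TPM in heat-shocked senescent cells and at 179.5 and 162 TPM in heat-shocked young cells, against 34.4 and 31.2 TPM in senescent controls and 32.4 and 29.7 TPM in young controls. Its log2 fold change was 2.10 ± 0.18 in senescent and 2.72 ± 0.18 in young RNA, and 2.00 ± 0.27 in senescent and 2.43 ± 0.27 in young footprints, with edgeR's adjusted p at most 0.00707. FLNC, a filamin that is a client of this route, rose in footprints by 1.79 ± 0.22 in senescent and 1.54 ± 0.22 in young cells and was not called in RNA. YWHAG, a 14-3-3 protein that binds BAG3, rose in young RNA (1.16 ± 0.18) and in footprints of senescent (0.81 ± 0.17) and young cells (1.01 ± 0.17). VPS18 was the 1 partner that fell, in senescent footprints, with a log2 change of −0.997 ± 0.24 (edgeR adjusted p = 0.0398). Beside these calls, 0.577% of all genes were called in senescent and 1.14% in young RNA, and 8.35% in senescent and 1.15% in young footprints. The list's median log2 change was 0.28 in senescent and 0.20 in young RNA, and 0.53 in senescent and 0.27 in young footprints.

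Of 8 genes of the BAG6 complex and of tail-anchored protein insertion, none was called in RNA, and 1 was called lower in senescent footprints and 1 in senescent translational efficiency, where 8.35% and 2.43% of all genes were called. Of the partners of BAG1, BAG2, BAG4 and BAG5, 9 were tested in RNA and 8 in footprints, and PARK7, which BAG5 is known to bind, was the 1 called, with senescent footprints higher by 0.77 ± 0.17 (adjusted p = 0.0312). That is 1 of 8 genes, where 8.35% of all genes were called. The median log2 change of the BAG6 list was −0.07 in senescent and −0.01 in young RNA, and −0.03 in senescent and −0.18 in young footprints. For the partners of the other members it was −0.05 in senescent and 0.06 in young RNA, and −0.47 in senescent and −0.08 in young footprints. No gene of these 5 lists was called for the difference of the responses or between senescent and young cells in any of the tests above.

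**Figure D5:**
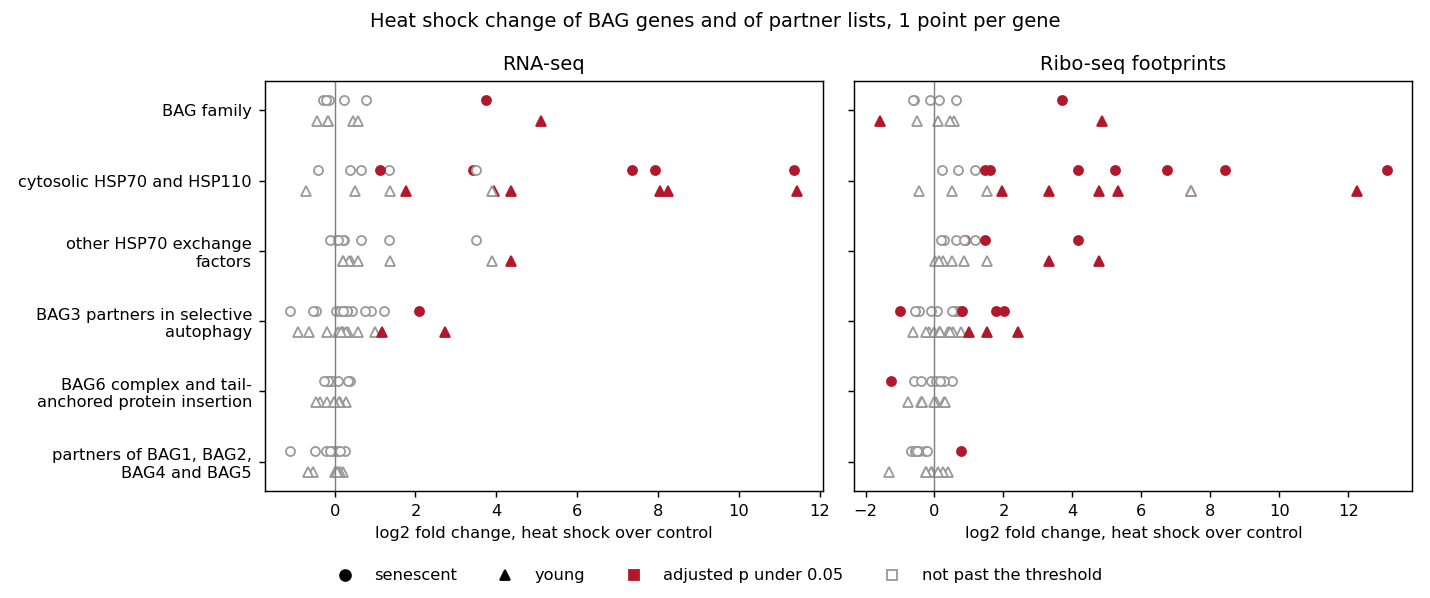
Log2 fold change on heat shock (heat shock over control, edgeR), 1 point per gene, for the BAG family and 5 lists of partners, in RNA on the left and footprints on the right. Circles are senescent cells and triangles young cells, and filled red symbols have an adjusted p under 0.05. In the HSP70 and HSP110 list 5 to 7 of 10 genes were called higher, and in the BAG6 list none was called higher and 1 was called lower, in senescent footprints. Over all genes tested, 0.577% to 8.35% were called in these comparisons, the most in senescent footprints.

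The gene whose level followed that of BAG3 most closely over the 16 libraries was HSPB8 (Pearson correlation of log2 CPM, each assay centred on its own mean, 0.996), then DNAJB1, an HSP40 that loads HSP70 (0.994), and TRIM16 (0.989). These correlations are descriptions over 11166 genes, and the points share libraries and the contrast of heat shock with control. For BAG1 the closest were SEPT5 (0.924), ZNF317 (0.891) and RASA3 (0.879), and for BAG2 NFXL1 (0.918), ICE2 (0.906) and PTPN2 (0.899). For BAG4 they were ETS1 (0.879), TSC22D2 (0.877) and CLDN12 (0.866), and for BAG5 TAF4 (0.945), PHACTR4 (0.918) and RAB11FIP2 (0.910). BAG6 was closest to ZSWIM8 (0.930), SF1 (0.924) and CNTNAP1 (0.924). Within the family, BAG3 correlated with BAG6 at 0.786, with BAG1 at −0.710 and with BAG5 at −0.664. BAG1 correlated with BAG4 at −0.658 and BAG5 with BAG6 at −0.654, and the other 10 pairs lay at −0.40 to 0.52.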

How the data were processed

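For 8 RNA-seq and 8 Ribo-seq libraries the authors deposited expected counts per gene from RSEM, all of them whole numbers, and TPM. STAR, RSEM, Bowtie2 and hg19 are named in the submitters' processing notes, without their roles; annotation, strand and trimming are not stated. Per the labels, RNA libraries came from the TruSeq RNA kit, and footprints from RNase If digestion and pelleting through sucrose.

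Of the expected counts, genes passing filterByExpr were kept: 13177 in RNA, 11288 in footprints and 11166 in both. With TMM scaling they entered edgeR 4.0.16 in R 4.3.3, by its quasi-likelihood F test with 1 mean per group. Residual degrees of freedom were 4 per assay and 8 in the joint fit of translational efficiency. Benjamini-Hochberg adjustment ran over all genes of a comparison, with a threshold of 0.05. A change common to all genes is not visible. SE are Wald errors. Levels between genes are TPM. Footprint to RNA ratios used log2 of TPM plus 1, with 0.1 as the alternative pseudocount. The same values were computed with relative log expression scaling, library size alone, no filter, a replicate block, DESeq2 1.42.0, limma 3.58.1 on log2(TPM + 1) where 2 or more libraries had a TPM of 1 or more, and each library left out. The procedure was tested on simulated data.

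The members and partner lists were chosen with earlier results of these data known. Named are the 6 members, up to 3 called genes of a list with the largest change in a comparison, and the 3 genes most like each member. The values of 1 called gene of the BAG6 list are not reported here. COL1A1, CDH5, CD3E and HSPH1 in senescent RNA were named after their values were seen. Promoter windows (RefSeq, GRCh38.p14) and exon overlaps (GENCODE) are of another build than the counts and were joined by gene name. Reads carry no molecular identifiers.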

Additional observations from a re-analysis of the deposited data

How the results depend on the processing

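Over 108 member values (the log2 changes of 6 genes in 14 comparisons and their footprint to RNA ratios) and 1422 alternatives, 1318 stayed the same, 5 lost a call, 9 gained one and 90 changed sign. For a log2 change, the same means that direction and side of the threshold were kept. For a ratio, which has no p value, it means a shift within the error expected from its SE. None of those 90 was of a called value. The 5 lost calls are those of BAG1 footprints in young cells, given with that result. Summing the young control footprints as 1 sample, an alternative chosen after seeing the data, left 1 of the 2 members called in young footprints, and leaving out single libraries left 1 to 2. BAG3 was called on heat shock in both states and assays under every alternative run.

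The main fit had no replicate block, since each group had only 2 libraries and the labels do not say what a replicate number marks. Deviations of same-numbered libraries correlated at 0.563 to 0.765 across genes in the 6 pairs of RNA groups and at −0.0376 to 0.303 in footprints. In RNA the same-numbered libraries thus shared differences that the main fit left in its spread. With the replicate number as a block, 2 members were called on heat shock in RNA in senescent cells and 2 in young cells, BAG3 and BAG6 (BAG6 edgeR adjusted p = 0.00786 and 0.0234), and 1, BAG3, between heat-shocked senescent and young cells (adjusted p = 0.0154). The block changed no other member's call.

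DESeq2 called 1 member, BAG3, between heat-shocked senescent and young cells in RNA and 1 in footprints, and no filter on low counts called 1 there in footprints, also BAG3 (edgeR adjusted p = 0.0440). Library size alone called 2 members on heat shock in senescent footprints, BAG3 and BAG5, and limma on TPM called 3, BAG1 besides. The cause was not tested. Library size alone moved the median log2 change of all genes on heat shock to −0.23 in senescent and −0.27 in young RNA and to −0.25 and −0.28 in footprints. Under it BAG2 footprints changed sign on heat shock (−0.15 in senescent and −0.17 in young cells), BAG5 RNA did for the difference of the responses (0.0088), and between senescent and young controls BAG1 RNA (−0.047), BAG6 RNA (−0.045) and BAG4 footprints (−0.011) did. On TPM with limma BAG2 footprints were at −0.18 in senescent and −0.093 in young cells and −0.086 for the difference, and in controls BAG1 RNA at −0.073 and BAG6 RNA at −0.12.

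Leaving out single libraries gave these ranges of log2 change for the members that changed sign, none of them called. In RNA they were, on heat shock in senescent cells, −0.75 to 0.29 for BAG1, −0.18 to 0.54 for BAG4. In RNA they were, on heat shock in young cells, −0.77 to 0.0097 for BAG1, −0.37 to 0.061 for BAG2. In RNA they were, for the difference of the responses, −0.33 to 0.71 for BAG1, −0.36 to 0.13 for BAG2, −0.65 to 0.069 for BAG4, −0.34 to 0.14 for BAG5, −0.048 to 0.46 for BAG6. In RNA they were, between heat-shocked senescent and young cells, −0.28 to 0.76 for BAG1, −0.68 to 0.034 for BAG4, −0.47 to 0.0068 for BAG5. In RNA they were, between senescent and young controls, −0.31 to 0.47 for BAG1, −0.44 to 0.028 for BAG2, −0.25 to 0.12 for BAG4, −0.18 to 0.22 for BAG6. In footprints they were, on heat shock in senescent cells, −0.094 to 0.34 for BAG2, −0.29 to 0.021 for BAG4. In footprints they were, on heat shock in young cells, −0.044 to 0.22 for BAG2. In footprints they were, for the difference of the responses, −0.19 to 0.24 for BAG2, −0.13 to 0.47 for BAG6. In footprints they were, between heat-shocked senescent and young cells, −0.35 to 0.25 for BAG6. In footprints they were, between senescent and young controls, −0.10 to 0.20 for BAG4. In translational efficiency they were, on heat shock in senescent cells, −0.94 to 0.13 for BAG1, −0.29 to 0.20 for BAG3, −0.42 to 0.073 for BAG6. In translational efficiency they were, on heat shock in young cells, −0.63 to 0.046 for BAG3, −0.35 to 0.42 for BAG4, −0.41 to 0.18 for BAG6. In translational efficiency they were, for the difference of the responses, −0.12 to 0.36 for BAG2, −0.097 to 0.58 for BAG3, −0.32 to 0.14 for BAG5, −0.35 to 0.24 for BAG6. In translational efficiency they were, between senescent and young controls, −0.26 to 0.21 for BAG2, −0.070 to 0.31 for BAG4, −0.062 to 0.014 for BAG5.

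Calls over all genes on heat shock numbered 76 in senescent and 150 in young RNA and 943 and 130 in footprints. They were 163, 317, 1528 and 422 without the filter, 828, 1156, 1667 and 330 with the block and 285, 445, 1515 and 447 by DESeq2. Limma on TPM gave 128 in senescent RNA and 80 in young footprints, library size alone 237 in young footprints, and the summed young controls 240 and 26 in footprints. For translational efficiency the calls, 271 in senescent and 10 in young cells, became 458 and 37 without the filter, 1156 and 57 with the block, 641 and 47 by DESeq2 and 154 and 5 with the summed controls. With single libraries left out the counts ran from 14 to 64 in senescent and 34 to 121 in young RNA, 239 to 1955 and 26 to 272 in footprints, and 50 to 688 and 5 to 17 in translational efficiency. The highest footprint counts came without senescent heat replicate 1. BAG1 had the fewest footprint counts of the family, 31 to 194 in a library.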
